A study of Mus musculus with 12 samples.

Results

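The 5 genes Capza1, Acp1, Carnmt1, Hmga1 and Rps3a1 (parents) and a near-identical copy of each were followed through 12 mouse mammary tumours. The 10 members, of 55487 genes in the count table, were taken by symbol as the pairs Capza1 and Capza1-ps1, Acp1 and Gm1866, Carnmt1 and Gm8116, Hmga1 and Hmga1b, and Rps3a1 and Rps3a3. The pairs had been chosen because their counts differed between the genotypes compared here. Their genotype differences are therefore given as a description and lend support to nothing. All 10 members passed the filter on low counts. The filter asked for 10 counts at the median library size in 6 tumours, and 3 of the copies passed it only through the Bad3SA tumours, as 1 Bad_WT tumour reached that level for Gm1866, 2 for Hmga1b and 5 for Gm8116.

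The tumours came from C57BL/6J mice of the MMTV-PyMT model, a transgenic line that expresses polyoma middle T antigen in mammary epithelium from a mammary tumour virus promoter. Of the 12 mice, 6 were wild type for Bad (Bad_WT) and 6 carried Bad 3SA (Bad3SA). BAD is a BH3-only protein that promotes apoptosis until kinases phosphorylate its serines, and 3SA replaces such serines by alanine. Each tumour is described as coming from an independent mouse. The series text calls the mice matched for age at end point, but the ages in the labels differ: Bad_WT mice reached end point at 24.0 ± 1.93 weeks and Bad3SA mice at 27.5 ± 2.85 weeks (mean ± SD, n = 6). The whole tumour was lysed, so fewer cells of a type and less RNA per cell cannot be told apart in any value below.

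A retrocopy arises when an mRNA is reverse transcribed and inserted at a new place in the genome. It lacks introns and usually a promoter of its own, and most retrocopies are annotated as processed pseudogenes. Because a retrocopy keeps the sequence of its parent's mRNA, short reads from parent and copy can match both places. The sources do not state how reads with several matches were counted, and the division of counts between a parent and its copy is uncertain throughout.

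Levels are in CPM, read counts relative to library size after TMM scaling, which allows for differences in RNA composition. A log2FC is the log2 fold change of Bad3SA over Bad_WT, positive where Bad3SA is higher. Total counts ran from 58096172 to 83296370 per tumour, at which 3 counts are worth 0.0360 to 0.0516 CPM. Of the luminal markers, Krt8 ran from 1065 to 1580 CPM and Epcam from 795 to 1516 CPM over the 12 tumours.

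None of 42 genes tested from 11 marker lists, luminal cells and proliferation included, was called by edgeR, against 1.38% of all genes. At an unadjusted edgeR p under 0.05 were 6 of the 42, against 16.2% of all genes. DESeq2 called 1 (Hbb-bs), against 4.35% of all genes, and voom 2 (Hba-a1 and Hbb-bs), against 3.21%. In several lists all tested genes lay on the same side. The 3 erythroid genes were higher in Bad3SA (summed level 23.5 to 102 CPM in Bad_WT against 59.5 to 205 CPM), as were the 5 T cell genes (2.84 to 10.9 against 7.93 to 17.5 CPM, median log2FC 0.63), the 4 adipocyte genes (2.45 to 39.5 against 5.29 to 144 CPM, median log2FC 1.79) and the 1 tested B cell gene. The 3 skeletal muscle genes were lower (1.29 to 756 against 0.961 to 103 CPM, median log2FC -2.38), as were the 3 proliferation genes (305 to 610 against 288 to 507 CPM, median log2FC -0.12). With voom all 3 muscle genes and 2 of the 3 proliferation genes were positive instead. The genotypes overlapped in each of these sums, and the part of these cells in the results was not tested.

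On a principal component plot Bad_WT 6 lay apart on the first axis (29.0% of variance), and Bad3SA 4, 5 and 6 lay apart on the second (19.9%). Bad itself averaged 47.0 ± 8.30 CPM among Bad_WT and 48.8 ± 12.4 CPM among Bad3SA tumours (log2FC 0.05, SE 0.17, edgeR adjusted p = 0.889). The allele changes codons, so the transcript level does not check the labels.

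Each copy was aligned with its parent's transcript, as annotated by GENCODE release M21 on GRCm38. The copies were 98.87% to 99.83% identical to their parents over the aligned bases. Stretches of 120 coding bases are shown for each pair, chosen to hold the most substitutions of any such coding stretch. They show how few coding bases tell parent from copy. Differences outside the coding part are not in them. They run 5′ to 3′ along the gene's own strand, and capitals mark the bases that differ within the pair. The spans of Capza1 and Acp1 cross introns, which are not printed.
Capza1, chr3:104825074-104828532, minus strand: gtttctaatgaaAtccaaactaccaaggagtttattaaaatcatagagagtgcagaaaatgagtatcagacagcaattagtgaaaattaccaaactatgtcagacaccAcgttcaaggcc
Capza1-ps1, chr1:105456634-105456753, plus strand: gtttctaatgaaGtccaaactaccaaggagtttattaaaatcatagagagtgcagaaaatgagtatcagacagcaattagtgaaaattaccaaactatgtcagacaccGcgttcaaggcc
Acp1, chr12:30895943-30897747, minus strand: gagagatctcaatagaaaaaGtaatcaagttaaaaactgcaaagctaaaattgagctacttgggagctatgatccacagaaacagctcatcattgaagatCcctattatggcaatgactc
Gm1866, chrX:114592115-114592234, minus strand: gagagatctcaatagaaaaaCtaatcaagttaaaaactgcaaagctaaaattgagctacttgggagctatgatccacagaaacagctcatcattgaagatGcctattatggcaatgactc
Carnmt1, chr19:18671077-18671196, plus strand: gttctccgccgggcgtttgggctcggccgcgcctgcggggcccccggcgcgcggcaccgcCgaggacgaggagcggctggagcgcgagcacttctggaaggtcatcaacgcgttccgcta
Gm8116, chr9:78821644-78821763, minus strand: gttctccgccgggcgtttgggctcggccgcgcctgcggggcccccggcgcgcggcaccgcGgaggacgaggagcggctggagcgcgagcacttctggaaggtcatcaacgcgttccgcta
Hmga1, chr17:27559569-27559688, plus strand: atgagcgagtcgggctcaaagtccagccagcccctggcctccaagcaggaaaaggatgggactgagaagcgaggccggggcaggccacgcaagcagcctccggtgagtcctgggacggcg
Hmga1b, chr11:120762889-120763008, plus strand: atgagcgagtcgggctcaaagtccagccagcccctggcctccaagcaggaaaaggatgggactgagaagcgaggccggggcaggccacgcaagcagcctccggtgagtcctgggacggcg
Rps3a1, chr3:86141296-86141415, minus strand: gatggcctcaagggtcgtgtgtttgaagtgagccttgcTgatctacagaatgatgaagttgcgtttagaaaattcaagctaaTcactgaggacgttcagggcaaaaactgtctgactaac
Rps3a3, chr13:108670780-108670899, plus strand: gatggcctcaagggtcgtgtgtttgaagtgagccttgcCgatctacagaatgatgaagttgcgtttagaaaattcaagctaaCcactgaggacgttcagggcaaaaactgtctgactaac
Substitutions are numbered from the first base of the parent's coding sequence, with the parent's base first and the copy's base last. The stretches hold A664G and A760G for Capza1-ps1, G311C and C391G for Gm1866, C138G for Gm8116, and T216C and T260C for Rps3a3. The Hmga1 and Hmga1b stretches are the same in all 120 bases.

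The copies differed in how much of the parent's mRNA they hold, as the map of the alignments shows. Capza1-ps1 and Hmga1b are long copies that run past the coding part. Capza1-ps1 aligned over 2854 bases of the Capza1 transcript of 3193 bases, with 8 substitutions, of which 3 (T543C, A664G and A760G) lie in the coding part, and with 3 gaps. Hmga1b aligned over 1602 bases of the Hmga1 transcript of 1681 bases with 3 substitutions, all outside the 324 coding bases, which are identical. The other copies are annotated over the coding sequence alone. Gm1866 covers all 477 coding bases of Acp1 with 4 substitutions, Gm8116 covers 1201 of the 1203 of Carnmt1 with 2, and Rps3a3 covers all 795 of Rps3a1 with 9.

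**Figure D1:**
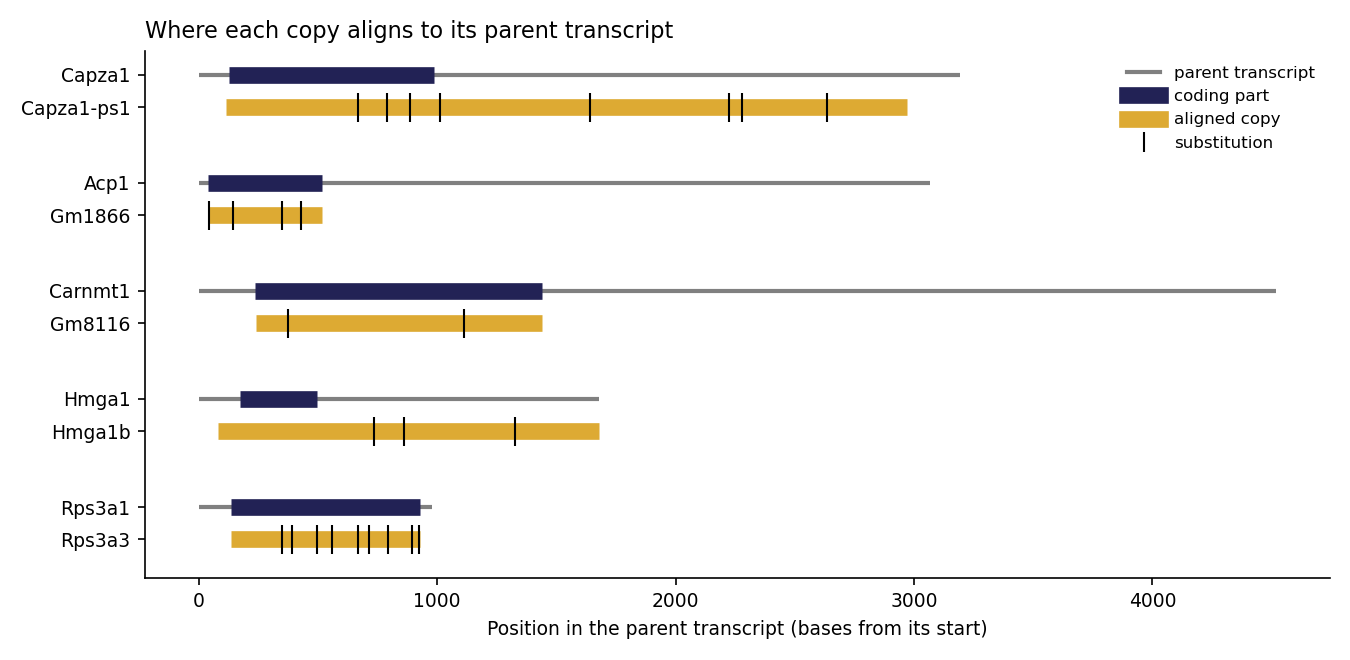
Alignment of the 5 copies to their parent transcripts; the x axis is the position in the parent transcript in bases from its start. Grey lines are parent transcripts, dark bars their coding parts, yellow bars the aligned copies and black ticks substitutions; Capza1-ps1 and Hmga1b extend beyond the coding part, while Gm1866, Gm8116 and Rps3a3 stop with it.

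To put the sharing in terms of reads, every window of 100 bases of each transcript was looked up in all annotated transcripts. Windows that also occur in the partner made up 76.0% of Hmga1 and 60.5% of Capza1, but 20.4% of Carnmt1, 14.6% of Rps3a1 and 3.6% of Acp1. Seen from the copies, the share was 81.9% for Gm8116, 78.8% for Hmga1b, 67.9% for Capza1-ps1, 28.3% for Gm1866 and 18.4% for Rps3a3. Windows found in the copy and in no other annotated gene made up 71.7% of Gm1866, 68.4% of Rps3a3, 31.1% of Capza1-ps1, 21.2% of Hmga1b and 18.1% of Gm8116. Every copy thus had windows of its own in the annotation, fewest in Gm8116.

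All 5 copies were higher in Bad3SA, and every Bad3SA tumour was above every Bad_WT tumour for each of them. All 5 were called by edgeR's quasi-likelihood test at an adjusted p under 0.05, against 0.622% of the 18019 genes tested that were called higher and 3.5% of the 914 pseudogenes among them (0.109% of the pseudogenes were called lower). Of the parents, Capza1, Acp1 and Carnmt1 were called lower, against 0.76% of all genes. Non-overlap between the genotypes held for 0.96% of all genes in the higher and 1.27% in the lower direction. Since the members were chosen on this contrast, nothing is read from these shares. In each pair the sum differed less between genotypes than either member did, as the plots of levels and of fold changes show.

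**Figure D2:**
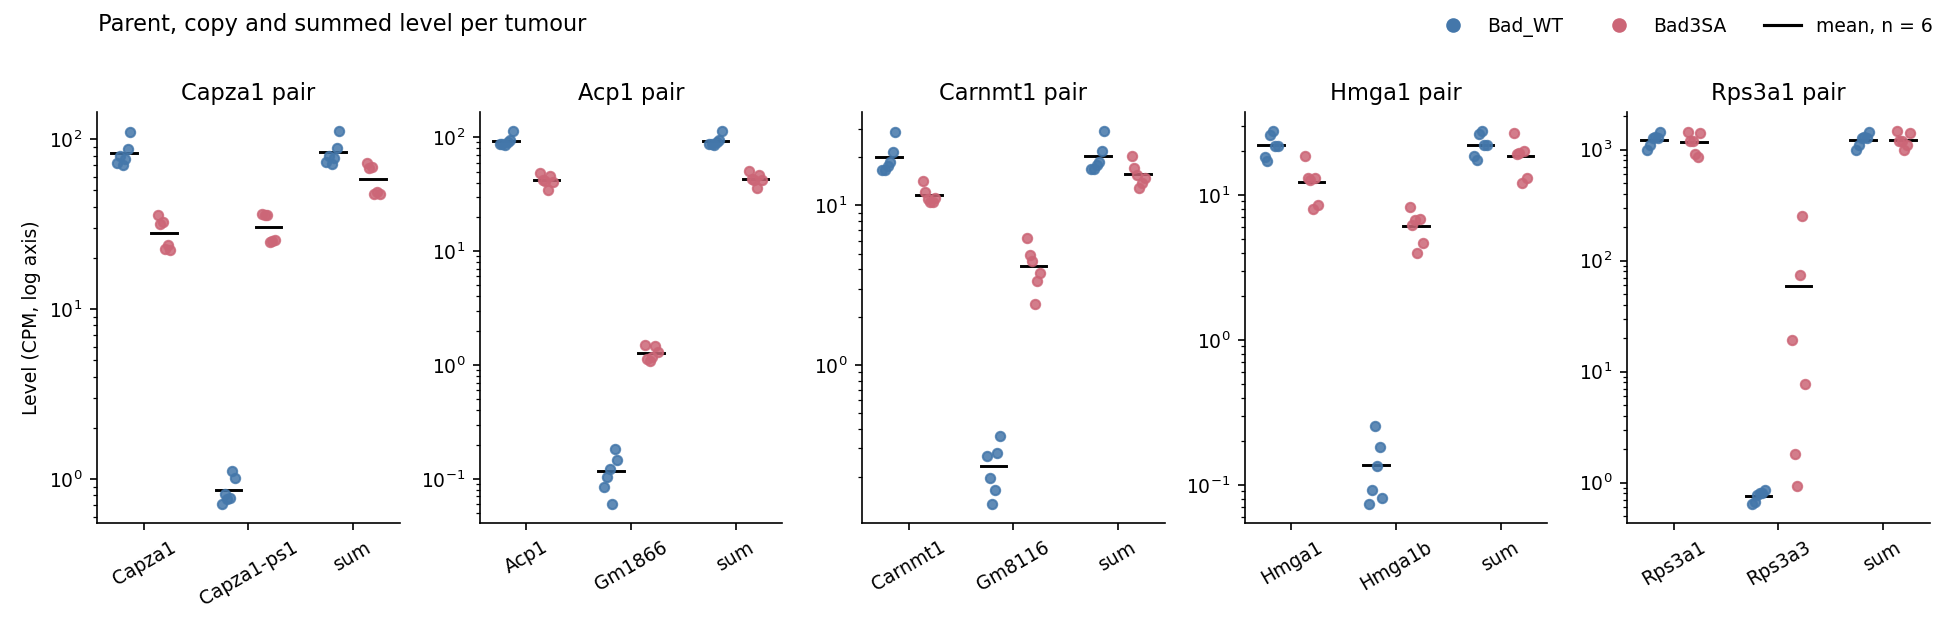
Level of parent, copy and their sum in CPM (log axis) in each tumour, by pair; points are tumours, blue Bad_WT and red Bad3SA, and bars are means (n = 6). The copies sit below 1.2 CPM in every Bad_WT tumour, and the Bad3SA points of Rps3a3 spread from 0.936 to 250 CPM.

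**Figure D3:**
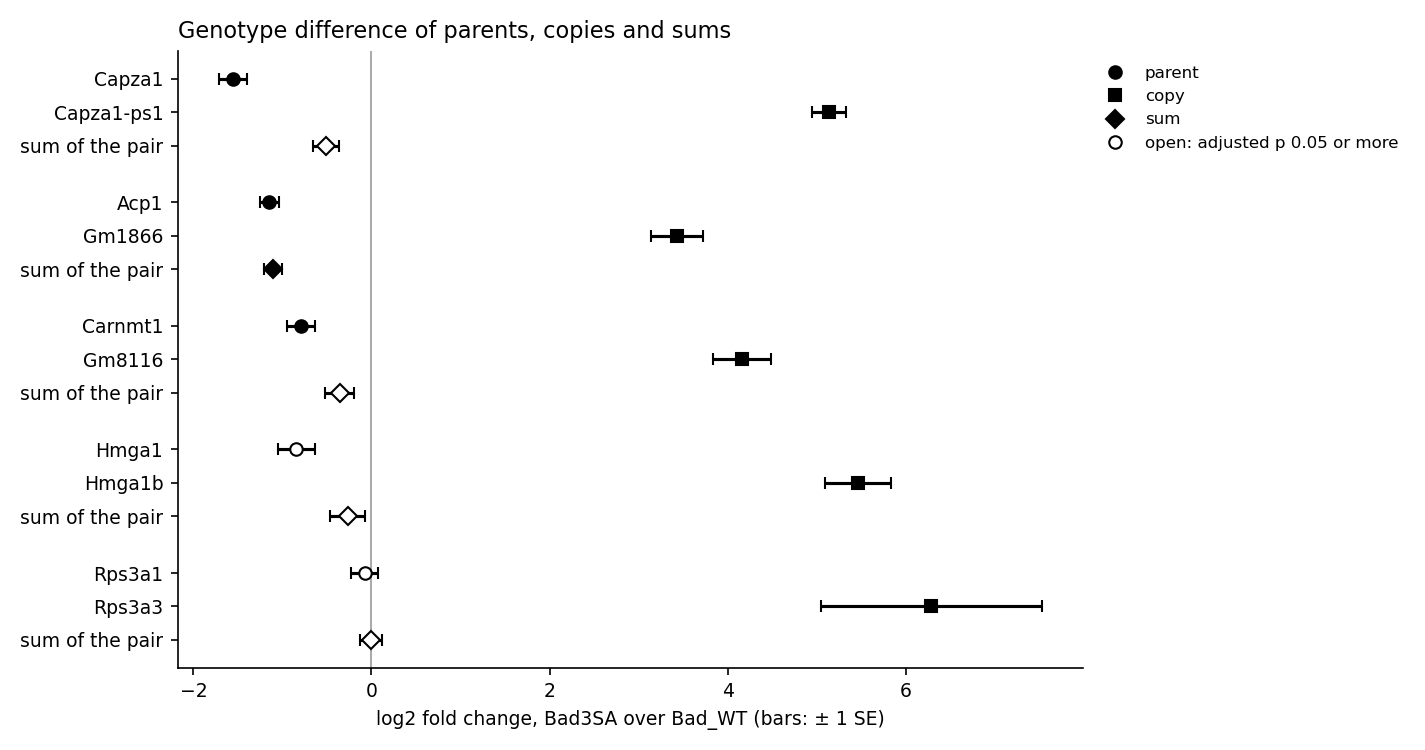
Log2 fold change of Bad3SA over Bad_WT for each parent (circle), copy (square) and pair sum (diamond) with 1 SE; open symbols have an edgeR adjusted p of 0.05 or more. The 5 copies lie between 3.43 and 6.29, the parents between -1.55 and -0.08, and only the Acp1 sum is called among the sums.

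Capza1 encodes the alpha subunit of the capping protein that closes the fast-growing ends of actin filaments. It lies at chr3:104822779-104864505 on the minus strand with 10 exons. Its level ran from 70.7 CPM through a median of 77.8 to 110 CPM in Bad_WT, and from 22.1 through 27.8 to 36.0 CPM in Bad3SA. The genotypes did not overlap, and Capza1 fell by log2 1.55 (SE 0.16, edgeR adjusted p = 1.04e-04), 2.94-fold.

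Capza1-ps1, a pseudogene at chr1:105455971-105458829 on the plus strand, carries the name Gm3608 in GENCODE and was matched by its identifier. It ran from 0.708 through 0.797 to 1.11 CPM in Bad_WT and from 24.9 through 30.4 to 36.2 CPM in Bad3SA. It rose by log2 5.14 (SE 0.19, edgeR adjusted p = 9.37e-09). Per kilobase of exon, it was at 0.303 CPM against 21.9 for Capza1 in Bad_WT and at 10.6 against 7.44 in Bad3SA, so that the copy stood above its parent in the mutant tumours. The summed level was 83.6 ± 14.9 CPM in Bad_WT against 58.6 ± 11.8 CPM in Bad3SA, with overlap (log2FC -0.51, SE 0.15, edgeR adjusted p = 0.133). The copy's gain in mean CPM equalled 54.2% of the parent's loss.

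Acp1 encodes a cytosolic low molecular weight phosphatase that removes phosphate from tyrosines. It lies at chr12:30893326-30911589 on the minus strand and ran from 85.5 through 89.1 to 113 CPM in Bad_WT and from 34.6 through 41.6 to 48.8 CPM in Bad3SA. It fell by log2 1.15 (SE 0.10, edgeR adjusted p = 5.00e-05), 2.21-fold, with no overlap.

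Gm1866, a processed pseudogene at chrX:114592048-114592524 on the minus strand, was the copy with the lowest mean and median level in Bad3SA. It had 4 to 13 counts per tumour in Bad_WT (0.0595 to 0.182 CPM, median 0.113) and 72 to 110 in Bad3SA (1.09 to 1.49 CPM, median 1.24). It rose by log2 3.43 (SE 0.29, edgeR adjusted p = 2.25e-05). Its gain covered 2.27% of the loss of Acp1, so the sum followed the parent: 93.2 ± 10.5 CPM in Bad_WT against 43.3 ± 4.90 CPM in Bad3SA. That sum fell by log2 1.10 (SE 0.10, edgeR adjusted p = 8.02e-05) without overlap, and was the single call among the 5 sums, against 0.716% of 18014 entries called lower when sums replaced the members.

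A search of all annotated transcripts at 95% identity or more over at least 50% of a parent's longest coding sequence found 8 further copies in the count table, and these had not been used to choose the pairs. Acp1 had 1, Gm14388, Capza1 had 1, Carnmt1 had 1, Rps3a1 had 5 and Hmga1 had none. Of the 8, 6 passed the filter. Of these 6, 1 was called, Gm14388, against 1.38% of all genes and 3.5% of pseudogenes called higher, and 2 had an unadjusted p under 0.05, against 16.2% of all genes. Gm14388, a processed pseudogene at chr7:122442023-122442499 on the plus strand, had 5 to 11 counts per tumour in Bad_WT and 25 to 41 in Bad3SA. It rose from 0.105 ± 0.0317 to 0.440 ± 0.0486 CPM (log2FC 2.05, SE 0.27, edgeR adjusted p = 0.00119) with no overlap. It passed the filter only through the Bad3SA tumours, as 0 of 6 Bad_WT tumours reached the level that the filter asks for, so a copy that passed in this way had to differ and its call is a description. Without a filter it had an edgeR adjusted p of 0.0130, where 0.69% of all genes were called.

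The copies Gm1866 and Gm14388 match different splice forms of Acp1. Acp1 makes 2 coding sequences of 477 bases that use alternative exons for coding bases 121 to 228. Gm1866 has 4 substitutions against the form that uses the exon shown first and 43 against the other, and Gm14388 has 43 and 4. The exons and the matching stretch of each copy are shown because they are where the copies can be told apart, and a capital marks a base that differs from the splice form above it.
Acp1 first form, chr12:30904873-30904980, minus strand: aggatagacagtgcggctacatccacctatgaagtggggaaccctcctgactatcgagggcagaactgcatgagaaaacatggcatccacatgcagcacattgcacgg
Gm1866, chrX:114592297-114592404, minus strand: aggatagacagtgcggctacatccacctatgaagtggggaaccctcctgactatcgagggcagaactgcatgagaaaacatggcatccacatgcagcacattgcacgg
Acp1 second form, chr12:30904721-30904828, minus strand: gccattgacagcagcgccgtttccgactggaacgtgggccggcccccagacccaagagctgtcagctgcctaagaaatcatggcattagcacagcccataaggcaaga
Gm14388, chr7:122442143-122442250, plus strand: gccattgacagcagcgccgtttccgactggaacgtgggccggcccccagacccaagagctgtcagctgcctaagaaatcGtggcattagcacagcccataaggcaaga
Over these 108 bases Gm1866 is the same as the first form and Gm14388 differs from the second at 1 base. Copies of both splice forms were higher in Bad3SA, while the counts of Acp1, which are not divided by splice form, were lower.

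Carnmt1 encodes the methyltransferase that turns carnosine into anserine. It lies at chr19:18670764-18707200 on the plus strand, and its level ran from 16.6 through 18.2 to 28.9 CPM in Bad_WT and from 10.5 through 11.1 to 14.3 CPM in Bad3SA. The fall of log2 0.79 (SE 0.16, edgeR adjusted p = 0.0235) came without overlap, but was not called when Bad_WT 5 or Bad3SA 3, 4 or 6 was left out (edgeR adjusted p up to 0.0679) or with end-point age in the model (log2FC -0.56, edgeR adjusted p = 0.345).

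Gm8116, a processed pseudogene at chr9:78820638-78821838 on the minus strand, ran from 0.134 through 0.232 to 0.359 CPM in Bad_WT and from 2.41 through 4.14 to 6.23 CPM in Bad3SA. It rose by log2 4.16 (SE 0.33, edgeR adjusted p = 1.07e-05). The sum was 20.3 ± 4.77 CPM in Bad_WT against 15.8 ± 2.71 CPM in Bad3SA, with overlap (log2FC -0.36, SE 0.16, edgeR adjusted p = 0.305). The copy's gain equalled 47.0% of the parent's loss. The further Carnmt1 copy, Gm7622, had 3 counts in all 12 tumours together and was not tested.

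Hmga1 encodes an architectural chromatin protein that binds AT-rich DNA through AT hooks. At chr17:27556497-27563674 on the plus strand, it ran from 17.2 through 21.8 to 27.4 CPM in Bad_WT and from 8.04 through 12.9 to 18.6 CPM in Bad3SA. The ranges overlapped, and its log2FC of -0.84 (SE 0.20) was not called (edgeR adjusted p = 0.0669). DESeq2's Wald test (adjusted p = 0.00854) and limma voom (adjusted p = 0.0420) called it, as did edgeR without Bad3SA 1 (log2FC -1.02, adjusted p = 0.0313). With other single tumours left out the edgeR adjusted p reached 0.156. Hmga1 was not called with end-point age in the model (log2FC -0.68, edgeR adjusted p = 0.461). The same held with the replicate block (log2FC -0.88, edgeR adjusted p = 0.206) and without the 4 tumours that lay apart (log2FC -0.58, edgeR adjusted p = 0.256).

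Hmga1b, at chr11:120762794-120764419 on the plus strand, is a copy with a single exon that is annotated as protein coding. It ran from 0.0732 through 0.113 to 0.255 CPM in Bad_WT, or 5 to 21 counts, and from 3.98 through 6.47 to 8.30 CPM in Bad3SA. It rose by log2 5.47 (SE 0.37, edgeR adjusted p = 2.53e-06). The sum was 22.2 ± 4.09 CPM in Bad_WT against 18.4 ± 5.37 CPM in Bad3SA, with overlap (log2FC -0.27, SE 0.20, edgeR adjusted p = 0.496), and the copy's gain equalled 61.3% of the parent's difference.

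Rps3a1 encodes a protein of the small ribosomal subunit and was the most abundant member. At chr3:86137940-86142702 on the minus strand, it ran from 995 to 1442 CPM in Bad_WT and from 851 to 1451 CPM in Bad3SA, with a log2FC of -0.08 (SE 0.15, edgeR adjusted p = 0.814). Its mean was 1231 ± 158 CPM in Bad_WT against 1167 ± 247 CPM in Bad3SA. The ranges overlapped, with Bad3SA 4 and 5 below every Bad_WT tumour.

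Rps3a3, a processed pseudogene at chr13:108670603-108671397 inside Pde4d on the same strand, differed from the other copies in its spread. In Bad_WT it ran from 0.635 to 0.849 CPM. In Bad3SA 1 to 6 it was at 19.2, 1.79, 0.936, 74.8, 250 and 7.73 CPM, so the highest tumour stood 267-fold above the lowest. The other 4 copies differed by at most 2.58-fold among the Bad3SA tumours.

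The log2FC of Rps3a3 was 6.29 (SE 1.24, edgeR adjusted p = 0.0235). The log2FC was 4.76 without Bad3SA 5, and it was not called without Bad_WT 1, 2, 3, 5 or 6 or Bad3SA 4 (edgeR adjusted p 0.0535 to 0.0695). Adjusting for end-point age gave 4.99 (edgeR adjusted p = 0.175), and limma voom with quality weights gave 2.58 (adjusted p = 0.326). The sum with Rps3a1 was 1232 ± 158 CPM in Bad_WT against 1226 ± 185 CPM in Bad3SA (log2FC -0.01, SE 0.13, edgeR adjusted p = 0.984).

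The 5 further copies of Rps3a1 were all processed pseudogenes and passed the filter. None was called by edgeR or by limma voom, against 1.38% and 3.21% of all genes. DESeq2 called 1, against 4.35%. At an unadjusted edgeR p under 0.05 was 1, against 16.2%. That copy was Rps3a2, on chromosome 14, at 3.02 to 3.94 CPM in Bad_WT. In Bad3SA 1 to 6 it was at 8.84, 3.42, 3.08, 22.4, 57.8 and 5.30 CPM (log2FC 2.25, SE 0.65, edgeR adjusted p = 0.127, DESeq2 adjusted p = 0.00713, voom adjusted p = 0.515). The log2FC of Rps3a2 was 1.27 without Bad3SA 5 and 0.56 without Bad_WT 6 and Bad3SA 4, 5 and 6. It was 0.71 with voom, 1.46 once age was adjusted for and 1.35 with the replicate block. The Bad3SA tumours stood in the same order for Rps3a2 as for Rps3a3, with Bad3SA 5 highest and Bad3SA 3 lowest. The ratio of Rps3a3 to Rps3a2 was 0.194 to 0.226 in Bad_WT and 0.304 to 4.33 in Bad3SA. The coding sequence of Rps3a1 is 98.87% identical to Rps3a3 and 99.49% identical to Rps3a2. The division of reads between these 2 copies is therefore uncertain too, and its part in their shared order was not tested.

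Bad3SA 4 and 5, which were highest for both copies, were lowest for Rps3a1, at 913 and 851 CPM. They also lay apart on the second principal component, whose part in the result was not tested. Without Bad_WT 6 and Bad3SA 4, 5 and 6, the log2FC of Rps3a3 was 3.31 (edgeR adjusted p = 0.117). The other copies with the highest counts were Gm5586 (log2FC 0.39, SE 0.21) and Gm8960 (log2FC 0.22, SE 0.30), and neither was called.

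**Figure D4:**
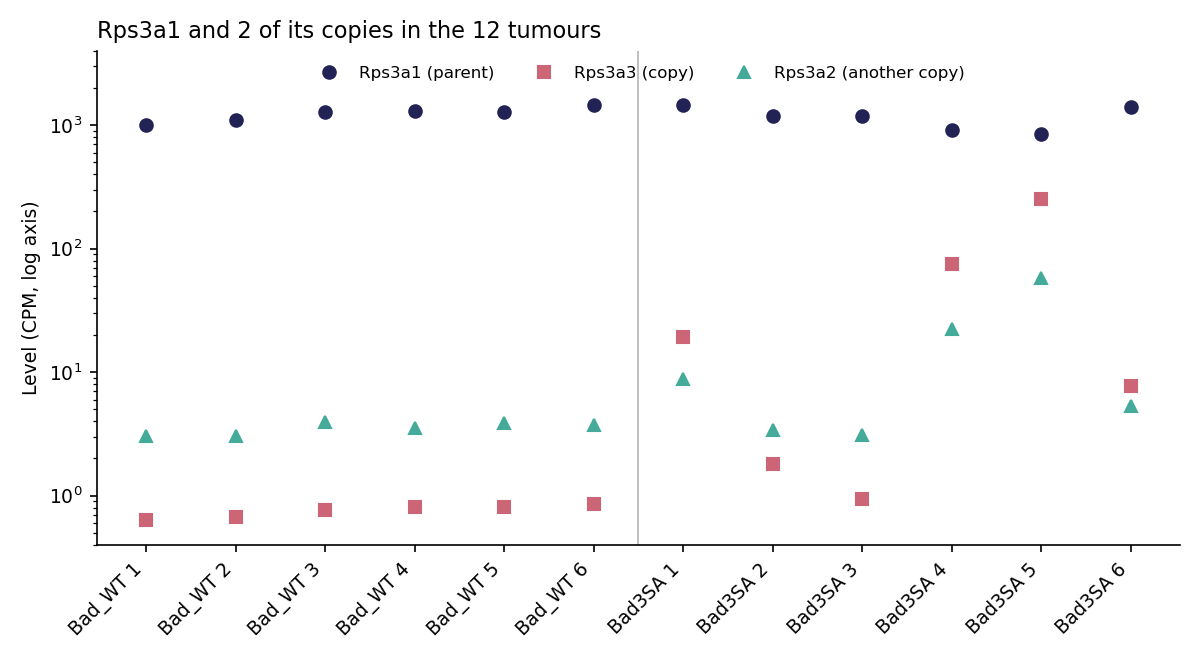
Level in CPM (log axis) of Rps3a1 and its copies Rps3a3 and Rps3a2 in each of the 12 tumours (x axis), with Bad_WT left of the line. The copies are flat over Bad_WT and stand in the same order over Bad3SA, reaching 250 and 57.8 CPM in Bad3SA 5, where Rps3a1 is at 851 CPM.

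The share of a pair's counts assigned to the copy sets the copy against its parent within each tumour, so library size does not enter. For Capza1-ps1 it was 1.04 ± 0.120% in Bad_WT and 52.0 ± 1.16% in Bad3SA (SD, n = 6 each). In Bad3SA it stayed between 50.1% and 53.4%, although the summed level of the pair ran from 47.4 to 72.2 CPM in the same tumours. Hmga1b took 0.599 ± 0.246% in Bad_WT and 33.5 ± 1.79% in Bad3SA, between 30.9% and 35.7%. These are the long copies, and in Bad3SA their shares varied least, with coefficients of variation of 2.23% and 5.34%. Copy counts per Bad3SA tumour were 1379 to 2910 for Capza1-ps1, 254 to 613 for Hmga1b, 154 to 460 for Gm8116, 72 to 110 for Gm1866 and 62 to 13789 for Rps3a3. Whether length or counts go with the spread was not tested. In Bad_WT the order differed: Rps3a3 varied least (3.15%), followed by Capza1-ps1 (11.5%), Gm8116 (26.3%), Gm1866 (34.2%) and Hmga1b (41.0%). Gm8116, Gm1866 and Hmga1b had only 4 to 22 counts per Bad_WT tumour, which limits the precision of their values.

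Gm8116 took 1.15 ± 0.302% of its pair in Bad_WT and 26.1 ± 4.34% in Bad3SA. Gm1866 took 0.124 ± 0.0425% in Bad_WT and 2.95 ± 0.299% in Bad3SA. Their coefficients of variation in Bad3SA were 16.6% and 10.1%, and the genotypes did not overlap. Rps3a3 took 0.0615 ± 0.00194% in Bad_WT and from 0.0787% to 22.7% in Bad3SA, a coefficient of variation of 166%. Its mean of 5.40% in Bad3SA rested on Bad3SA 5 and was 1.93% without it.

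**Figure D5:**
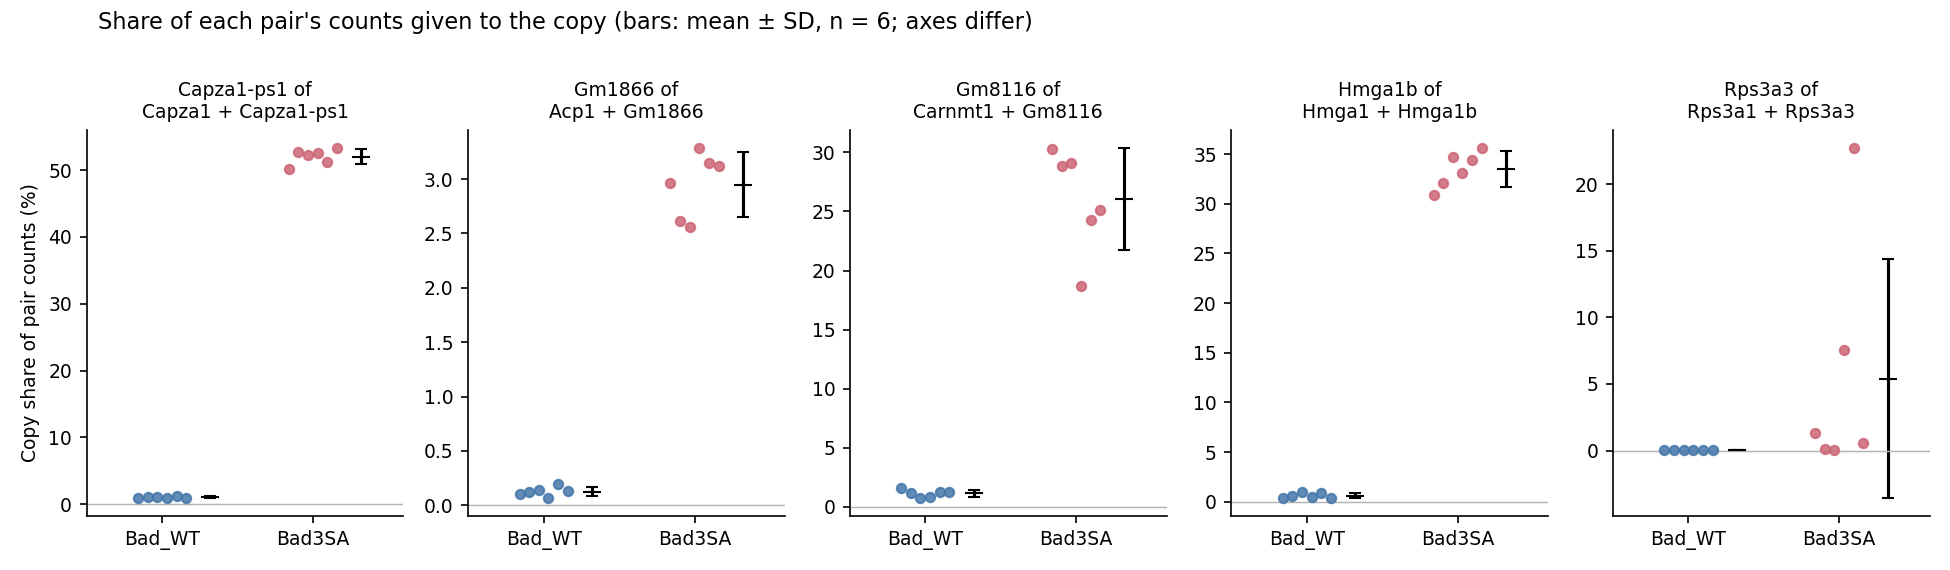
Share of each pair's counts assigned to the copy, in percent, per tumour by genotype; points are tumours, bars mean and SD (n = 6), and the y axes differ between panels. The Bad3SA shares of Capza1-ps1 and Hmga1b sit in narrow bands near 52.0% and 33.5%, whereas those of Rps3a3 reach from 0.0787% to 22.7%.

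Capza1 had 1 further copy, Gm5920, with 96.7% identity to its coding sequence. Gm5920 had 2 counts over the 6 Bad_WT tumours and 43 over the 6 Bad3SA tumours, too few to pass the filter. Without a filter edgeR called it (adjusted p = 0.0222), against 0.69% of all genes, and so did DESeq2 (adjusted p = 0.00118), against 4.35%. The division of reads between Gm5920, Capza1 and Capza1-ps1 is uncertain too. The counts were 0 in 4 of the Bad_WT tumours and at least 3 in every Bad3SA tumour.

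The authors' deposited table, whose sign is Bad_WT over Bad3SA, gives the same directions for all 10 members. It lists log2FC values of 1.49 for Capza1 and -4.90 for Capza1-ps1, 1.13 for Acp1 and -3.13 for Gm1866, and 0.76 for Carnmt1 and -3.71 for Gm8116. For Hmga1 the authors' deposited table has 0.79 with an adjusted p of 0.00885, and for Hmga1b -4.80. The widest gap concerns Rps3a3, which is at -1.85 in the authors' deposited table, with a DESeq2 adjusted p of 0.000801.

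The copies sit on chromosomes 1, X, 9, 11 and 13, none on that of its parent. Their surroundings were described with genes that overlap a member and the nearest tested gene on either side. For the copies, the nearest tested genes lay 16327 (Rfng) to 5697735 (Pcdh11x) bases away, with Gapt at 1681219 and Col12a1 at 777153. Of the 11 such genes tested around the copies, none was called by edgeR, DESeq2 or voom, against 1.38%, 4.35% and 3.21% of all genes. At an unadjusted edgeR p under 0.05 was 1, against 16.2%. The 11 genes had 4 positive and 7 negative log2FC values, with a median of -0.22. For Capza1-ps1 these were Rnf152 (log2FC -0.90, SE 0.30) and Pign (-0.22, SE 0.12), and for Gm1866 Klhl4 (-0.24, SE 0.36) and Pcdh11x (-1.65, SE 1.03). For Gm8116 they were Cd109 (-0.17, SE 0.36) and Col12a1 (-0.27, SE 0.29). For Hmga1b they were Cbr2 (0.67, SE 0.59) and Rfng (0.16, SE 0.25).

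Pde4d, the cAMP phosphodiesterase gene that holds Rps3a3, averaged 5.02 ± 1.36 CPM in Bad_WT against 6.47 ± 1.58 CPM in Bad3SA (log2FC 0.37, SE 0.24, edgeR adjusted p = 0.447). Its flanking genes Gm27572 and Gapt had log2FC values of -0.27 (SE 0.30) and 0.09 (SE 0.54). Pde4d ran from 4.35 to 8.28 CPM in Bad3SA, where Rps3a3 spanned 267-fold. AC124553.1, which overlaps Capza1-ps1 on the other strand, was too low to be tested, with at most 0.0604 CPM in any tumour. Around the parents, 2 of 16 genes tested were called by edgeR and by voom, both higher. Over all 18019 genes edgeR called 1.38% and voom 3.21%. The 2 were Mov10, 4216 bases from Capza1 (log2FC 0.62, SE 0.12, edgeR adjusted p = 0.0161) and Tmem18, 302111 bases from Acp1 (log2FC 0.45, SE 0.10, edgeR adjusted p = 0.0396). DESeq2 called Mov10, Tmem18 and 9630028I04Rik, 308431 bases from Hmga1, against 4.35% of all genes. Closer to Acp1, neither Alkal2, which overlaps it (log2FC 0.27, SE 1.14), nor Sh3yl1 at 79 bases (log2FC -0.29, SE 0.14) was called. Mov10 lost its call without Bad_WT 3 or Bad3SA 3 or 4, and Tmem18 in 9 of the 12 fits that left out 1 tumour, in each but those without Bad_WT 2, Bad_WT 6 or Bad3SA 4 (edgeR adjusted p up to 0.112).

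Genes of the same process, named group or enzyme class as a parent were taken from 5 lists with 69 genes tested. They are called partner genes below, which does not mean that each acts together with the parent. Of these 49 had positive and 20 negative log2FC values, with a median of 0.21, against a median of 0.003 over all genes tested. The pooled median reflects the small ribosomal subunit list, where all 31 genes were positive (median 0.27). The medians of the other lists were -0.18, -0.10, 0.01 and 0.02. By each of edgeR, DESeq2 and voom 1 of the 69 was called, against 1.38%, 4.35% and 3.21% of all genes, and 11 had an unadjusted edgeR p under 0.05, against 16.2%. The count of calls is thus near or below that over all genes. None of 12 actin capping genes was called (median -0.18), and none had an unadjusted p under 0.05. Capza2, another alpha subunit, and Capzb, the beta subunit, were at 183 ± 21.3 and 347 ± 70.6 CPM in Bad_WT against 157 ± 31.6 and 362 ± 48.5 CPM in Bad3SA. Twf1 and Carmil1, which bind the capping protein, had log2FC values of -0.23 and -0.24.

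Among 10 acid and tyrosine phosphatases Acp6, a lysophosphatidic acid phosphatase, rose from 36.7 ± 4.30 to 60.0 ± 12.3 CPM (log2FC 0.71, SE 0.14, edgeR adjusted p = 0.0207), a call lost without Bad_WT 3 or Bad_WT 5 (edgeR adjusted p 0.0510 to 0.0554). Ptpn11, which encodes SHP2, had a log2FC of -0.35. None of 8 carnosine and histidine genes was called and none had an unadjusted edgeR p under 0.05 (Slc15a4 -0.22 and Hdc 0.44 on the log2 scale), and the same held for 8 high mobility group genes (Hmgb2 0.29 and Hmgn2 0.21). All 31 genes of the small ribosomal subunit had positive log2FC values (median 0.27, with Rps20 at 0.39 and Fau at 0.41), and none was called (8 at an unadjusted edgeR p under 0.05). With DESeq2 size factors or DESeq2 all 31 stayed positive, and with voom 30 did. Rps3a1 itself was at -0.08 with edgeR, but turned positive with voom (0.0054), with age in the model (0.093) and without the 4 tumours that lay apart (0.11).

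For each copy the tested genes with the most similar log2 CPM profile over the 12 tumours were listed by Pearson's r, a measure that includes the genotype difference itself. For 4 of the copies they were all processed pseudogenes. Gm14287 and Gm15975 ranked first and second for Capza1-ps1 (r = 0.998 and 0.991), Gm8116 (r = 0.987 and 0.986) and Hmga1b (r = 0.993 and 0.986). The genes ranked next were Gm48496, Gm6252 and Glo1-ps in that order. Gm14287 was at 0.0201 CPM in Bad_WT, below the worth of 3 counts, and at 6.48 CPM in Bad3SA. Gm1866 was closest to Hist1h2al, Rps7-ps3 and Npm3-ps1 (r = 0.992, 0.990 and 0.988). Rps3a3 was closest to Rps3a2 (r = 0.970), followed by the protein-coding genes Fahd2a and Naxd (r = 0.931 and 0.923).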

How the data were processed

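Polyadenylated RNA of 12 mammary tumours was sequenced as paired reads of 100 bases, per the labels. Tools and build (STAR 2.7.9a, fastp 0.23.1, DESeq2, GRCm38) are as in the submitters' processing notes. The authors deposited raw read counts per gene. The counting tool, annotation release, strand setting and treatment of reads with several matches were not given in the sources used here. From the authors' deposited comparison the log2 fold change and adjusted p-value were read, per the file headers. The authors' mean signal (normalised counts averaged over tumours) and Wald score per gene, per the file headers of that deposited table, were not used.

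After filterByExpr (edgeR 4.0.16) 18019 genes remained, and counts were scaled by TMM and tested with the robust quasi-likelihood F test (Benjamini-Hochberg, 0.05), the SE being the absolute log2 fold change over the square root of F. Positive values are higher in Bad3SA. Pair sums replaced the members in a second fit. Sequences and positions come from GENCODE release M21 (BLAST+ 2.17.0, Biopython 1.88). Genes were named by a written rule: all members and sums, at most 3 further copies per parent, neighbours of the copies, the 3 closest profiles, and per list the called genes or the 2 with the smallest p. Capza2, Capzb, Mov10, Tmem18, Gm5920, Gm7622, 9630028I04Rik, Alkal2, Sh3yl1, Krt8 and Epcam were named after their values were seen. Alternatives were other filters, scalings and tests (DESeq2 1.42.0, limma 3.58.1), age, a block and left-out tumours. The fit was tested on simulated data. The members and lists were chosen with earlier results of these data known.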

Additional observations from a re-analysis of the deposited data

Results flagged for a closer look

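In groups of 6 tumours, a tumour was marked when its gap to the nearest other exceeded 0.625 of the group's range. Of 40 groups of parents, copies, sums and shares, 4 held such a tumour, and chance marks about 1 in 20. The groups are not independent, since sums and shares are built from the members. All 4 marks fell on Bad_WT 6 or Bad3SA 5, so their number cannot be set against that rate. Acp1 was at 113 CPM in Bad_WT 6 (gap to the next tumour 0.654 of the range), and the sum of Acp1 and Gm1866 was at 113 CPM there, with the next at 95.2 CPM (gap 0.652 of the range). Both lie on the side away from the Bad3SA values. Rps3a3 was at 250 CPM in Bad3SA 5, with the next tumour at 74.8 CPM (gap 0.704 of the range). Its share of the pair's counts was 22.7% in Bad3SA 5 and 7.57% in the next (gap 0.669 of the range).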

How the results depend on the processing

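The calls of Capza1, Capza1-ps1, Acp1, Gm1866, Gm8116, Hmga1b and the Acp1 sum held under every alternative, including each tumour left out. Of the 5 copies 4 to 5 were called without 1 tumour, of the parents 2 to 4, of the neighbours 0 to 2 and of the partner genes 0 to 1, with 1 further copy and 1 sum in each. Over all genes, 249 calls became 147 to 315 without 1 tumour, 163 with at least 1 CPM in 6 tumours, 1017 with DESeq2, 579 with voom and 73 with end-point age. Other copies called were 2 without a filter, 0 with at least 1 CPM in 6 tumours, which leaves Gm14388 untested, and 3 with DESeq2. Neighbours called were 1 without a filter and 0 with age, and partner genes 0 without Bad_WT 6 and Bad3SA 4, 5 and 6, an alternative chosen after seeing the data. The cause of these shifts was not tested. Rps3a3 lost its call without a filter (edgeR adjusted p = 0.0999), and at 1 CPM in 6 tumours it was not tested. Carnmt1 without the 4 tumours had an edgeR adjusted p of 0.124.

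The numbers in the titles do not pair the tumours: deviations of same-numbered tumours correlated at -0.281 to 0.295, and 2 of 12 tumours correlated best with their own number. With the replicate block 105 genes, 0 neighbours and 0 partner genes were called, and Rps3a3 (4.10, edgeR adjusted p = 0.228) and Carnmt1 (edgeR adjusted p = 0.138) lost their calls.

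Some log2 fold changes turned sign, none of them called. With all tumours their values lay between -0.24 (Carmil1) and 0.67 (Cbr2). Without a filter Gm13408 was at -0.0055, with at least 1 CPM the Rps3a1 sum at 0.017, and with the block Gm13408 at -0.0086. With voom Rps3a1 was at 0.0054, its sum at 0.040, Gm13408 at -0.16, Klhl4 at 0.018, Cd109 at 0.25, Rfng at -0.13 and Bad at -0.17. With age Rps3a1 was at 0.093, its sum at 0.11, Cd109 at 0.013, Rfng at -0.047, Gapt at -0.52 and Bad at -0.19. Without the 4 tumours Rps3a1 was at 0.11, its sum at 0.12, Klhl4 at 0.14, Cd109 at 0.16, Cbr2 at -0.63, Rfng at -0.41, Carmil1 at 0.019 and Bad at -0.24. Without 1 tumour Rps3a1 ran from -0.17 to 0.00080, its sum from -0.084 to 0.064, Gm13408 from -0.097 to 0.15, Cd109 from -0.31 to 0.0049, Cbr2 from -0.061 to 1.15, Gapt from -0.35 to 0.59 and Bad from -0.10 to 0.12. The copies' low levels in Bad_WT, 4 to 22 counts per tumour for Gm1866, Gm8116 and Hmga1b, limit the precision of their fold changes.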

Other observations

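Copies and parents were also matched beyond the 5 pairs. Of 914 pseudogenes tested, 3.5% were called higher in Bad3SA and 0.109% lower. For 26 of the 32 called higher a parent among the tested protein-coding genes could be assigned by sequence. The parent had a negative log2 fold change in 17 of the 26 (65.4%), with a median of -0.25, and 7 were called lower and 2 higher. Over all 674 tested pseudogenes with a parent, 26.4% of parents had a negative value, with a median of 0.16, and 9 were called lower and 3 higher. With the member copies left out, 13 of 22 parents (59.1%) were negative, with a median of -0.16, 4 called lower and 2 higher. Member parents were not left out, and Acp1 can still enter as the parent of Gm14388. That set is thus not free of the members. These shares are descriptions, since several pseudogenes can have the same parent. The 32 were also picked by their call on this same contrast. Some could pass the filter only through the Bad3SA tumours, as Gm14388 did with 0 of 6 Bad_WT tumours at its level. The division of reads between a pseudogene and its parent is uncertain, so nothing is read from the comparison with all 674.

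Examples outside the pairs, chosen after their values were seen, include Gm12191, a copy of the large ribosomal subunit gene Rpl30, whose parent fell from 127 to 60.2 CPM (log2 fold change -1.07, edgeR adjusted p = 0.00116). Scoc, the parent of Gm7335, fell by log2 1.34 (edgeR adjusted p = 6.44e-05), and Zfp617, the parent of Gm18180, fell by log2 0.59 (edgeR adjusted p = 0.0424). In the opposite direction, St6galnac1 and Nat9, the parents of Gm11735 and Gm43554, were called higher together with their copies.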
